A study of Saccharomyces cerevisiae with 18 samples.

Results

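The 72 genes described here encode 41 proteins of the large (60S) ribosomal subunit of budding yeast, Saccharomyces cerevisiae. They were all genes of the deposited table named RPL with a number and, where present, a final A or B, except RPL7A, RPL7B, RPL41A and RPL41B, and they made up 72 of its 7126 genes. The set held 31 pairs of A and B paralogs and 10 genes with no paralog, and all 72 genes passed the filter that left 5680 genes for testing, a mean above 1 TPM over the 6 total extracts (TPM counts reads per coding length, scaled to the same sum in each library). RNA was sequenced from 2 separate cultures each of the strains labelled R28P-30A and R28P-30B and of wild type (WT), all in the BY background and grown at 30 °C, in a medium that the labels give both as Yc and as synthetic minimal. From every culture 3 libraries were made, of the total extract, the light fraction (mRNA with 40S and 60S subunits or 80S monosomes) and the heavy fraction (mRNA with 4 or more ribosomes), 18 libraries in all. R28P-30A and R28P-30B are listed with both chromosomal RPL7 genes removed (rpl7a∆::URA3 and rpl7b∆::KMX) and with a LEU2 plasmid that carries the intronless cDNA of RPL7A in R28P-30A or of RPL7B in R28P-30B. In both strains the RPS28A promoter and the ADH1 terminator flank that cDNA, so the RPL7 gene of either strain is not driven by its own promoter. The deletions of HIS3, LEU2, LYS2 and URA3 are shared with WT.

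Each 60S subunit holds ribosomal RNA and 1 copy of nearly every large subunit protein, so the members supply an assembly line that needs its parts in like amounts. The proteins are made in the cytoplasm, most of them travel to the nucleolus to join the pre-ribosome, and a few join only after export. In yeast most of these genes exist as A and B copies left by an ancient duplication of the genome, and in fast growing cells they are transcribed together under Rap1, Ifh1, Fhl1 and Sfp1 and repressed together when nutrients fail.

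Reads recovered from the deposited CPM (counts scaled to the same sum in each library) ran from 17373839 to 31525927 per library, and the members took 7.48 to 8.17% of the reads of every total extract. The strain labels were checked with the deleted genes. In R28P-30B total extracts RPL7A fell to 4.31 and 4.59 TPM, against 1619 and 1604 TPM in WT, and RPL7B stood at 3818 and 4130 TPM, against 323 and 326 TPM in WT. Where the label is R28P-30A, total extracts held RPL7B at 255 and 238 TPM and RPL7A at 2205 and 2052 TPM. URA3 had 11 reads over the 6 libraries labelled R28P-30A, 47409 over the 6 R28P-30B libraries and 3 over the 6 WT libraries, while LEU2 had 13091, 96411 and 6 reads in the same order of strains. The RPL7B and URA3 reads go against the label R28P-30A, so these are called the libraries labelled R28P-30A, and their differences are differences of libraries with this label.

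The coding sequences of the 31 pairs were read from the R64 genome to see how alike 2 paralogs are and how far their reads can be told apart. Coding identity ran from 78.9% (RPL22) to 99.4% (RPL1), with a median of 93.2%, and both genes of 11 pairs encode the same protein. A stretch of 50 nt of the B gene also occurred in the A gene for a median of 10.5% of positions, for none in 8 pairs, and for 81.0% in RPL1, 80.6% in RPL35, 72.7% in RPL4 and 60.9% in RPL11. How reads that fit both genes were counted is given only as keeping all valid positions, so A and B values of those 4 pairs are uncertain. The next highest shares were 47.8% in RPL42, 42.1% in RPL14 and 28.4% in RPL2, whose A and B values are uncertain to a lesser degree. The first 120 bases of 2 pairs are shown because their paralogs have the same coding length and stood furthest apart in the distribution between fractions described below. Capitals mark the bases that differ between the paralogs, 7 in the shown part of RPL8 and 6 in that of RPL15.

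RPL8A, chrVIII:35906-36025, minus strand: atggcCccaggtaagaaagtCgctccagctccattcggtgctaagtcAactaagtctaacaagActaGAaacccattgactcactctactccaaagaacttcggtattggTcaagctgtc

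RPL8B, chrXII:48510-48629, minus strand: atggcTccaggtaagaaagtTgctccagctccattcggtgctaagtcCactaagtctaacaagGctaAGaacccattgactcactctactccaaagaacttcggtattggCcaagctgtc

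RPL15A, chrXII:202471-202590, minus strand: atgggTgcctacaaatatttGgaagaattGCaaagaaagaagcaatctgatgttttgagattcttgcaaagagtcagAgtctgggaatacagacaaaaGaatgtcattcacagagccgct

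RPL15B, chrXIII:510229-510348, minus strand: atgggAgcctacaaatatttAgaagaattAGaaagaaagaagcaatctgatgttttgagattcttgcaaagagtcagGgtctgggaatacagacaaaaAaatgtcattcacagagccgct

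These 4 genes have no coding intron and are written 5′ to 3′ from the start codon, in the coordinates of R64. A stretch of 50 nt of the B gene was also found in the A gene at 6.93% of positions in RPL8 and at 11.8% in RPL15.

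The first question was how evenly the parts of the subunit are supplied as mRNA. Summed over paralogs, the 41 proteins had a median of 3507 TPM in total extracts labelled R28P-30A, against 3519 TPM in R28P-30B extracts and 3517 TPM in those of WT. In WT the sums ran from 2041 TPM for RPL1, a protein of the mobile L1 stalk, to 5053 TPM for RPL36, and their coefficient of variation was 20.9% over the 41 proteins, against 43.5% over the 72 single genes. The same pair of values was 20.2% and 45.0% in libraries labelled R28P-30A, and 20.8% and 44.8% in R28P-30B. The 4 pairs with the most shared sequence were among the lowest sums in WT, with 2041 ± 115 TPM for RPL1, 2347 ± 40.9 TPM for RPL4, 2390 ± 56.2 TPM for RPL11 and 2582 ± 48.1 TPM for RPL35 (SD, n = 2 cultures). RPL42, the next in shared sequence, had 4207 ± 200 TPM. RPL6, which shared no stretch of 50 nt, stood at 2411 ± 50.1 TPM, and the part that read sharing plays in these sums was not tested.

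**Figure D1:**
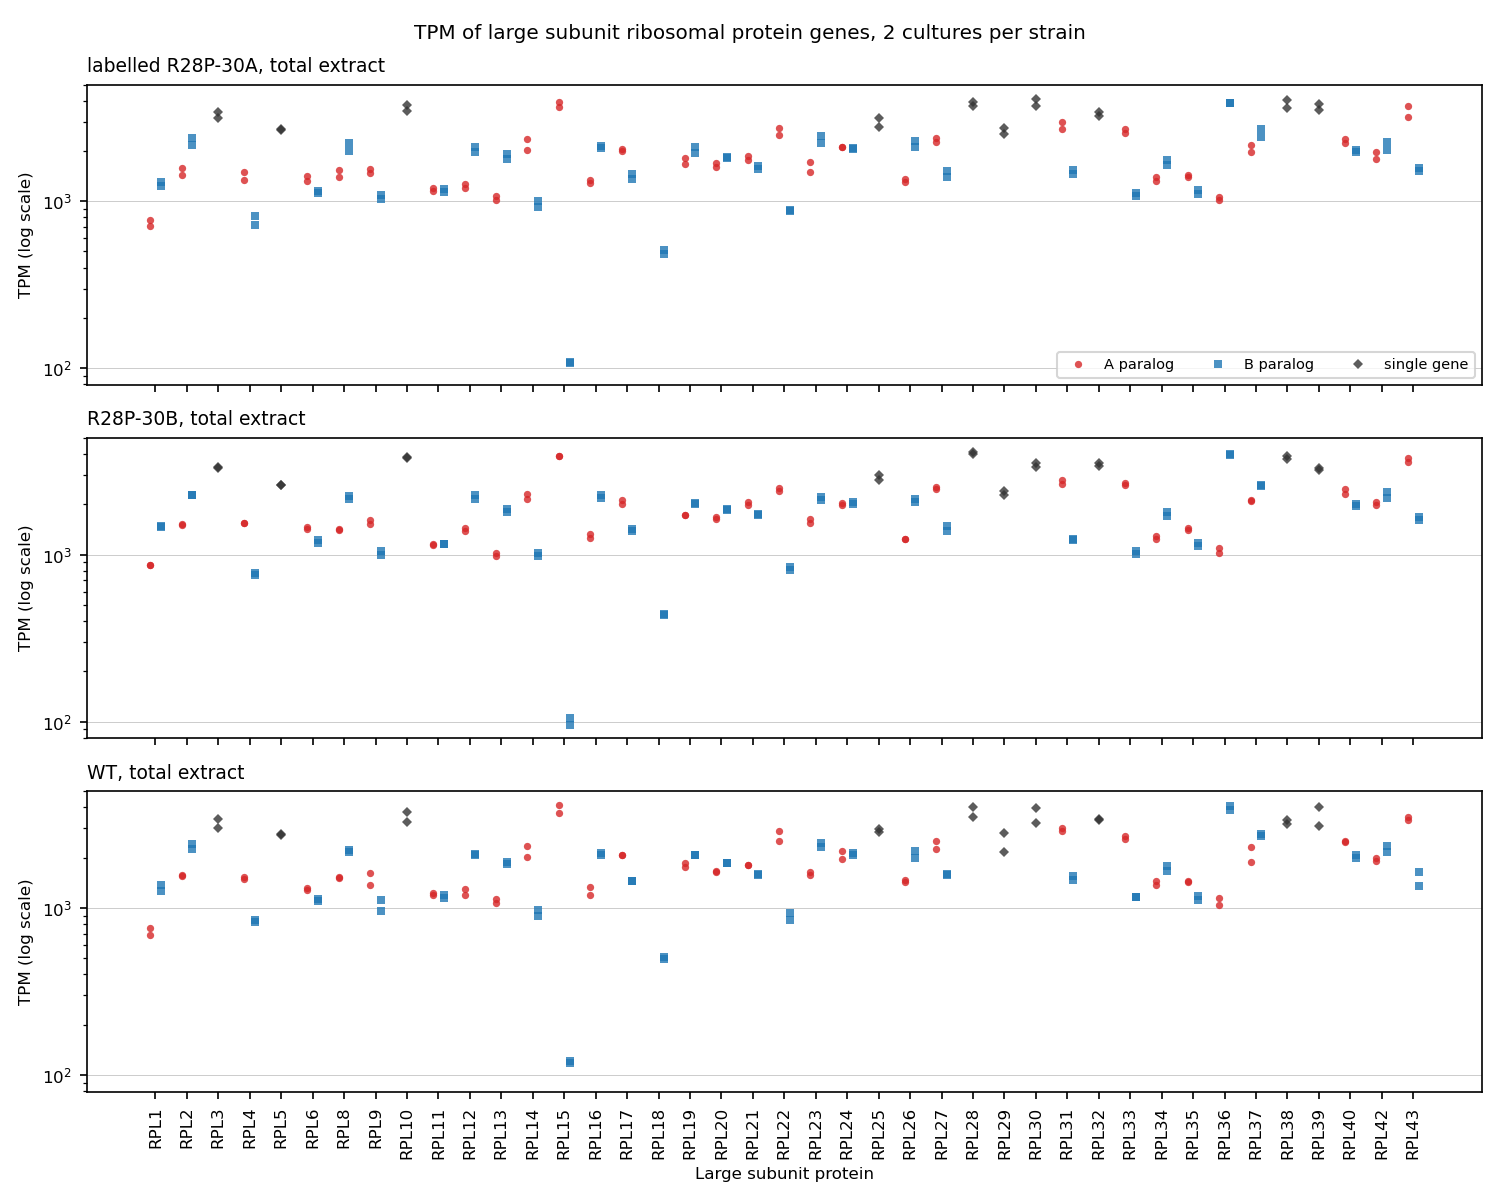
TPM (log scale) of 71 of the genes in total extracts, with the 41 proteins along the x axis and a panel for each strain; red circles are A paralogs, blue squares B paralogs, black diamonds genes with no paralog, and each point is 1 of 2 cultures. RPL15B lies lowest in all 3 panels, at 95.7 to 121 TPM, while RPL15A lies between 3682 and 4142 TPM.

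The 10 single-copy genes had a median of 3324 TPM in WT total extracts, against 1631 TPM over the 62 genes with a paralog. RPL28, where mutations give resistance to cycloheximide, had 3906 and 3734 TPM in total extracts labelled R28P-30A, 4109 and 4010 TPM in R28P-30B, and 4029 and 3491 TPM in WT. RPL10, whose protein is among the last to join the subunit in the cytoplasm, had 3758 and 3452 TPM, 3825 and 3767 TPM, and 3773 and 3260 TPM in the same order of strains. For both genes either strain overlapped with WT. Over the 10 single-copy genes the WT values ran from 2155 TPM in 1 culture for RPL29 to 4030 TPM in 1 culture for RPL39. RPL29 had 2795 and 2155 TPM and RPL39 had 4030 and 3110 TPM in the 2 WT cultures.

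Within pairs, the A paralog was the more abundant mRNA of 17 pairs in total extracts labelled R28P-30A, of 15 in R28P-30B and of 16 of 31 in WT. The most unequal pair was RPL15, a protein deep in the subunit core. RPL15A (YLR029C) had 3951 and 3682 TPM in total extracts labelled R28P-30A, 3902 and 3899 TPM in R28P-30B, and 4142 and 3688 TPM in WT. RPL15B (YMR121C) had 109 and 108 TPM, 95.7 and 105 TPM, and 121 and 117 TPM in the same order, so that A exceeded B 32.8-fold in WT. RPL36 leaned the other way, with 3867 and 4052 TPM for RPL36B and 1146 and 1039 TPM for RPL36A in WT, a ratio of 3.62 in favour of B. RPL22A exceeded RPL22B 3.02-fold and RPL14A exceeded RPL14B 2.33-fold. In none of these 4 pairs did the values of the paralogs overlap in any strain.

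The most equal pairs were RPL24, RPL11 and RPL20. RPL24, a protein of the bridge to the small subunit, had 2179 and 1975 TPM from RPL24A and 2079 and 2147 TPM from RPL24B in WT, and it was the only one of the 31 pairs whose paralogs overlapped there. RPL11, which binds 5S rRNA together with RPL5, had 1196 and 1235 TPM from A and 1154 and 1195 TPM from B. RPL20 had 1647 and 1675 TPM from A and 1863 and 1867 TPM from B. The order of the paralogs in total extracts differed from WT in 1 pair for libraries labelled R28P-30A (RPL24) and in 1 pair for R28P-30B (RPL11), both of them pairs near equality.

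The second question was how these mRNAs divide between the light and the heavy fraction. Transcripts with more ribosomes than a monosome but fewer than 4 are in neither, so a low heavy value does not by itself show weak translation. In WT the members were enriched in the light fraction, with a median light CPM over total CPM of 1.63, against 1.03 for all genes tested. This ratio was above 1 in both cultures for 67 of 72 members, beside 2714 of all 5680 genes tested. Their median heavy CPM over total CPM was 0.889, against 0.866 for all genes tested. The translation index of a gene, its heavy CPM over its light CPM in the same culture, had a member median of 0.536 in WT, with 15 members above 1 and 57 below 1 in both cultures. On the log2 scale the members had a median of -0.90 and all genes tested a median of -0.22. In the limma fit, 10 members were higher and 56 lower in the heavy than in the light fraction at an adjusted p under 0.05. Beside this, 84.1% of all genes were called in either direction, 4776 genes of which 1843 were higher in the heavy fraction.

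The order of the WT index followed the size of the protein. RPL39, the shortest member with 156 nt of coding sequence, whose protein lines the exit tunnel, had an index of 0.0931 and 0.0884 in the 2 WT cultures. RPL29, with 180 nt, had 0.108 and 0.12, and RPL37A had 0.116 and 0.121. At the other end RPL4B, whose protein reaches into the exit tunnel, had 1.62 and 1.59, RPL3, the longest member with 1164 nt and a protein that touches the peptidyl transferase centre, had 1.62 and 1.52, and RPL4A had 1.52 and 1.55. The log2 differences ran from -3.46 ± 0.14 for RPL39 (SE, adjusted p = 5.4e-07) to 0.68 ± 0.06 for RPL4B (adjusted p = 6.76e-06). Adjacent genes in this order often could not be separated, since the ranges of the 2 cultures overlapped for 49 of 71 neighbours. Over the 72 members, log2 index and log2 coding length had a Pearson r of 0.85 and a Spearman rho of 0.81, against 0.45 and 0.42 over 5677 genes. The members share their libraries and range from 156 to 1164 nt with a median of 468 nt, against a median of 1212 nt for all genes tested. The index and the TPM of the members had an r of -0.01.

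**Figure D2:**
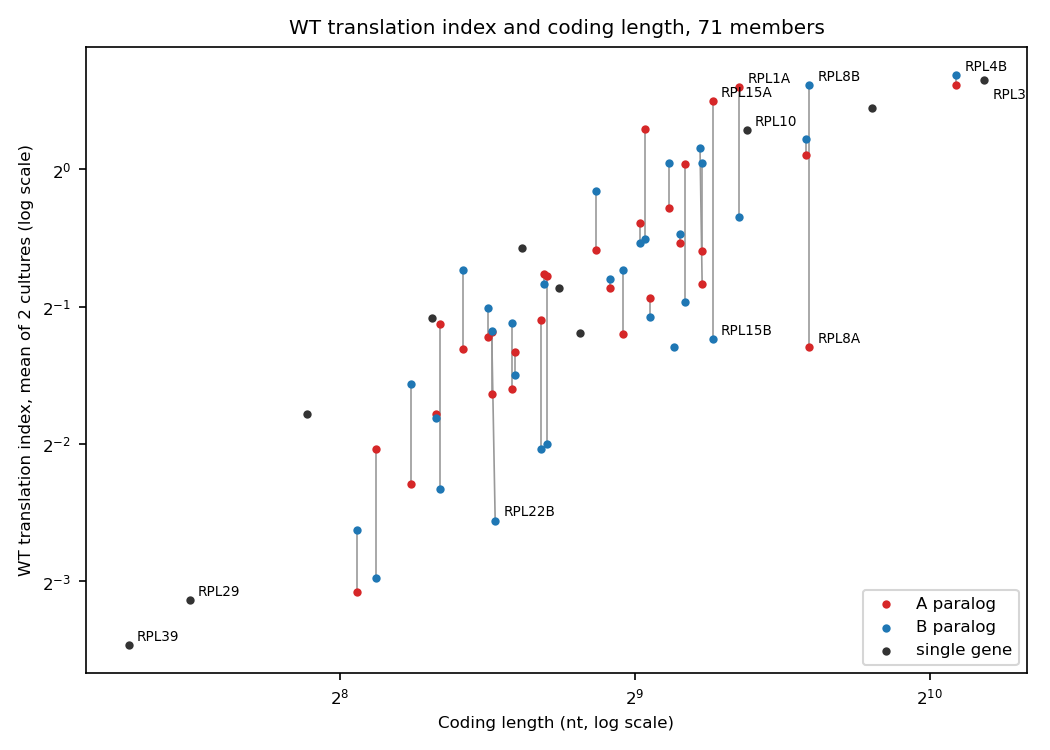
WT translation index (mean of 2 cultures, log scale) against coding length in nucleotides (log scale) for 71 members, with A paralogs in red, B paralogs in blue, single genes in black and a grey line joining 2 paralogs. The index climbs from RPL39 at 0.0908 to RPL4B at 1.61, and long vertical lines mark pairs of 1 length with unequal index, such as RPL8 and RPL15.

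Of the 72 members 50 (69.4%) have a coding intron, each just 1, against 4.96% of all genes tested. The 22 members without a coding intron had a median log2 index of -0.25 in WT and the 50 with one a median of -1.11. The groups also differ in length, and the part of each was not tested.

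Paralogs of 1 length often sat in different fractions. RPL8B had a WT index of 1.57 and 1.49, against 0.41 and 0.405 for RPL8A, whose start was printed above with only 7 of 120 bases changed. In RPL15 the A copy had the high index, 1.5 and 1.33, against 0.414 and 0.435 for RPL15B. The paralogs of both pairs stood apart in both WT cultures. A test of the A minus B difference in WT was added after these values were seen. In limma over all 61 gene pairs named A and B, 12 of the 31 member pairs had a higher index for A and 12 for B, beside 85.2% of the 61 pairs called, which include the 31. The largest differences on the log2 scale were -1.91 ± 0.05 for RPL8 (SE, adjusted p = 4.96e-07), 1.73 ± 0.07 for RPL15 (adjusted p = 1.36e-06), 1.38 ± 0.09 for RPL22 and 1.22 ± 0.04 for RPL14. The index was higher in the more abundant paralog of 22 pairs and in the less abundant one of 9 in WT.

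The leading paralog differed between fractions. In the WT light fraction 5 pairs (RPL8, RPL9, RPL11, RPL16 and RPL24) had the other paralog on top than in the total extract, while none did in the WT heavy fraction. RPL8A made up 58.4% of the pair's TPM in the WT light fraction, 40.9% in the total extract and 27.3% in the heavy fraction. RPL16A made up 51.2%, 37.6% and 34.5% in the same fractions.

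The third question was how the distribution of these genes differed between the libraries of each strain label and WT. As the RPL7B and URA3 reads go against the label R28P-30A, differences of those libraries are not read as effects of replacing RPL7. In the libraries labelled R28P-30A the translation index rose for 32 of the 72 members, and in the total extract no member passed the test. The median index was 0.683 where the label is R28P-30A, 0.552 for R28P-30B and 0.536 for WT, and 67 of 72 members had both cultures labelled R28P-30A above both WT cultures, a pattern shown by 17% of all genes tested. In limma none of the others fell, beside 24.1% of all genes called in either direction, 3.52% higher and 20.5% lower. The median log2 change was 0.35 over the members, 69 of them positive, and -0.13 over all genes tested.

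RPL43A (YPR043W, chrXVI:654166-654847) rose most, with an index of 0.376 and 0.458 in libraries labelled R28P-30A, against 0.248 and 0.24 in WT (log2 change 0.77 ± 0.14, SE, adjusted p = 0.0108). RPL37A (YLR185W, chrXII:522663-523288), a small zinc-binding protein, had 0.172 and 0.2, against 0.116 and 0.121 in WT (0.65 ± 0.16, adjusted p = 0.0236). RPL27A (YHR010W, chrVIII:126521-127492) had 0.627 and 0.78, against 0.465 and 0.471 in WT (0.58 ± 0.12, adjusted p = 0.0156). Both cultures labelled R28P-30A lay above both WT cultures for the 3 genes. The 3 members with a log2 change below 0 were RPL22B, with an index of 0.137 and 0.115 in libraries labelled R28P-30A, against 0.162 and 0.178 in WT, RPL31B, with 0.56 and 0.508 against 0.609 and 0.598, and RPL9B, with 0.534 and 0.48 against 0.498 and 0.529. Their log2 changes were -0.44, -0.18 and -0.02, none past the adjusted p. They are named after their values were seen.

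Without replicate 2 of the libraries labelled R28P-30A no member passed, and without replicate 1 or replicate 2 of WT 2 and 4 members passed. Centring each culture on its median gene, which moved the median of all genes to 0.04, gave 61 higher members. With edgeR on recovered reads the count was 67. Both included all 32, and none was lower. Over all 5680 genes tested, 628 were called higher after centring and 864 in edgeR.

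**Figure D3:**
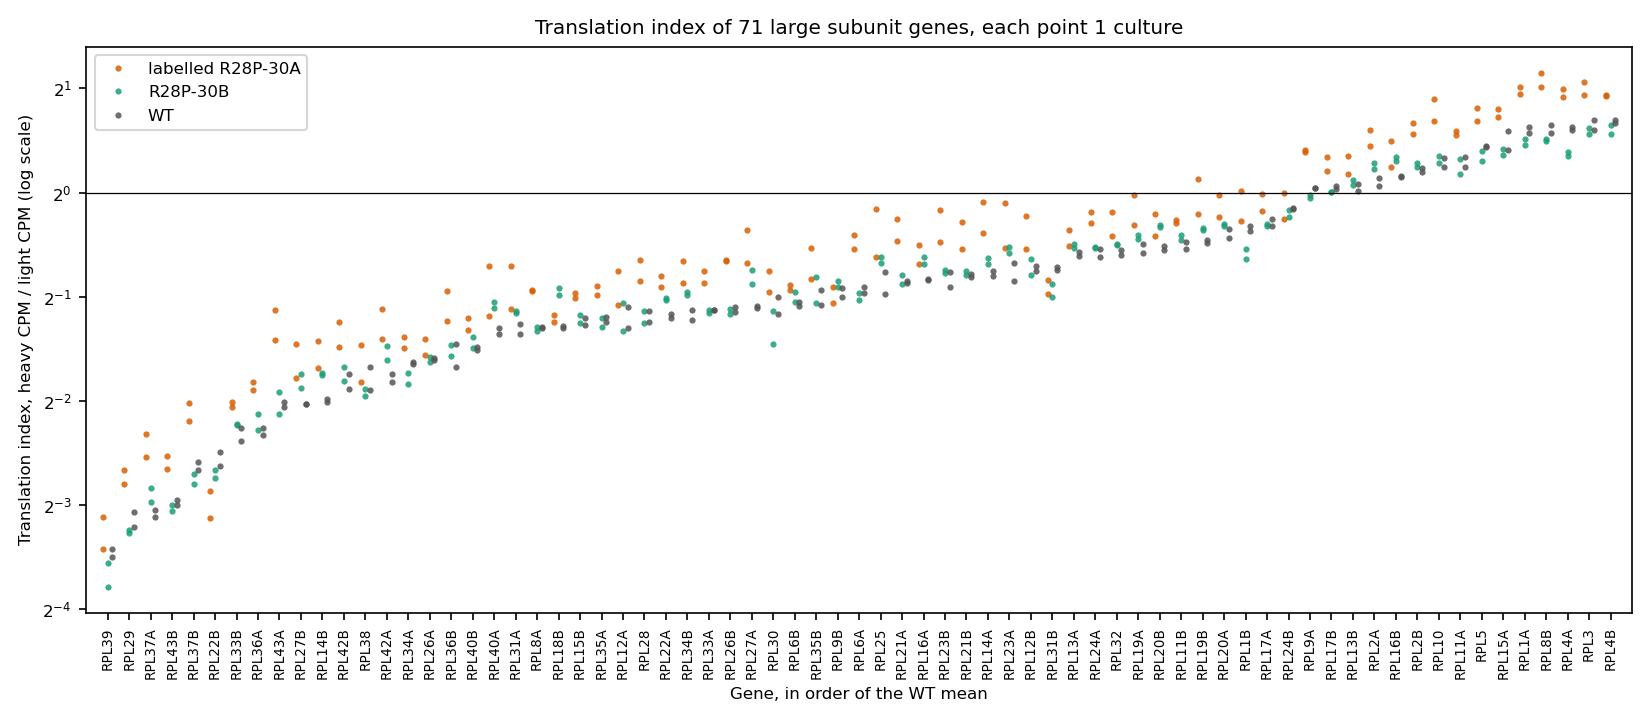
Translation index (heavy CPM over light CPM, log scale) of 71 members in order of their WT mean, with orange points for cultures labelled R28P-30A, green for R28P-30B and grey for WT, 2 cultures each. Both orange points lie above both grey ones except for RPL9B, RPL22B, RPL24B, RPL31B and RPL38, and for RPL22B and RPL31B they lie below.

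In the light fraction 56 members fell and 1 rose in libraries labelled R28P-30A, beside 39.8% of all genes tested called in either direction and 9.84% called lower, and the median log2 change was -0.30, against 0.11 for all genes tested. The members took 9.55 and 10.04% of light reads where the label is R28P-30A, 12.4 and 12.4% for R28P-30B, and 12.2 and 11.7% in WT. For 62 of 72 members both light libraries labelled R28P-30A lay below both WT libraries, beside 20.9% of all genes tested. The 2 light libraries labelled R28P-30A were also the 2 shallowest of the 18, with 19244036 and 17373839 reads, and the part of depth in this result was not tested.

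RPL43A fell most in the light fraction, to 1302 and 1251 CPM in libraries labelled R28P-30A, against 2085 and 2125 CPM in WT (log2 change -0.72 ± 0.05, SE, adjusted p = 0.000463). RPL30, which in yeast binds its own transcript to hold back its splicing, had 1531 and 1685 CPM, against 2316 and 2246 CPM in WT (-0.51 ± 0.07, adjusted p = 0.00168). RPL29 had 770 and 832 CPM, against 1193 and 1047 CPM in WT (-0.48 ± 0.07, adjusted p = 0.00177). RPL22B alone rose, with 1199 and 1397 CPM, against 1081 and 1028 CPM in WT (0.30 ± 0.07, adjusted p = 0.014). RPL22 has been studied in yeast for the control that its protein exerts on the splicing of RPL22B. The call for RPL22B in the light fraction was absent after centring, after scaling without ribosomal protein genes and in edgeR, where no member was called higher, and also without replicate 2 of the libraries labelled R28P-30A.

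In the heavy fraction no member passed the test between libraries labelled R28P-30A and WT, beside 0.194% of all genes, with 2 members at an unadjusted p under 0.05 and none in edgeR. The median log2 change there was 0.06. Without replicate 1 of the libraries labelled R28P-30A, however, 10 members were called higher. The members took 7.79 and 8.87% of heavy reads in libraries labelled R28P-30A, against 8.31 and 7.84% in WT, so the 2 cultures of this label lay on either side of WT. In the total extract no member passed either, beside 0.757% of all genes, with 2 at an unadjusted p under 0.05 and none in edgeR, and the changes ran from -0.14 to 0.22 with a median of -0.02. Of all genes tested, 36 rose and 7 fell in that comparison.

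**Figure D4:**
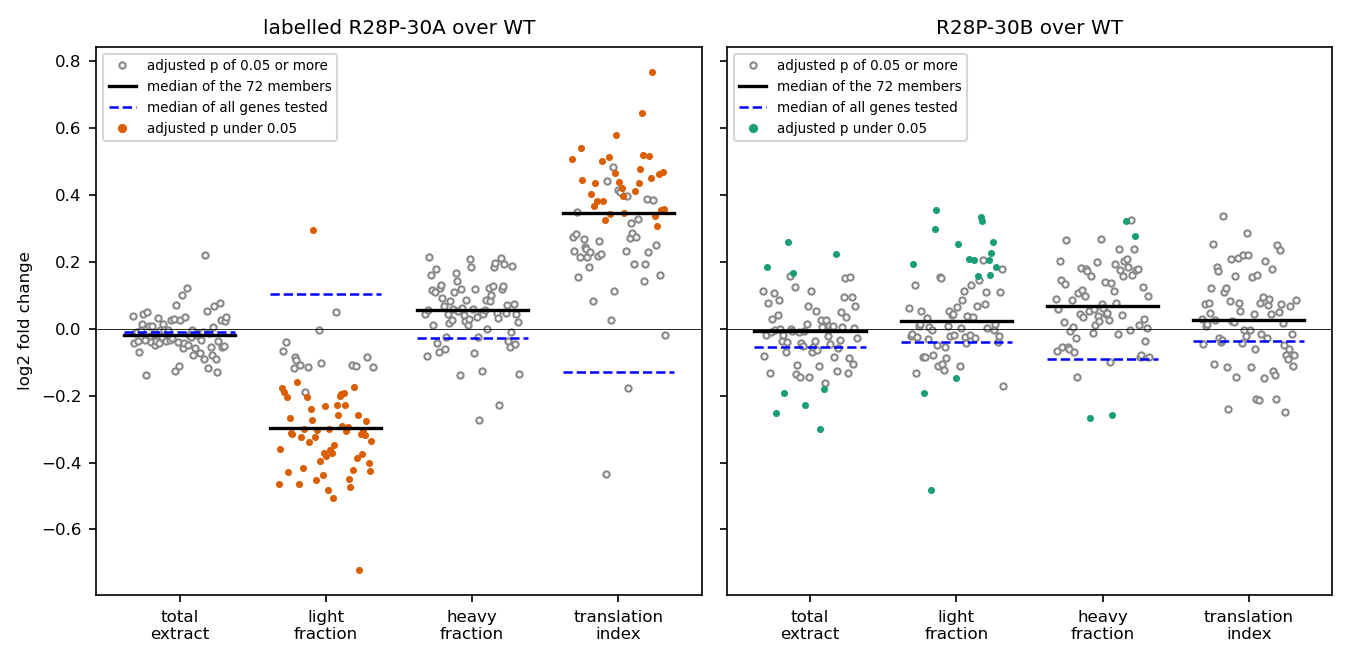
log2 fold change of each member against WT in the total extract, light fraction, heavy fraction and translation index, with libraries labelled R28P-30A on the left and R28P-30B on the right; filled points passed an adjusted p of 0.05, the black bar is the median of the 72 members and the blue dashed bar that of all genes tested. In the left panel the members' median is -0.30 in the light fraction and 0.35 for the index, and in the right panel it is 0.02 and 0.03.

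Between R28P-30B and WT no member passed in limma for the translation index, beside 13.4% of all genes tested, with 2 members at an unadjusted p under 0.05 and 1 in edgeR, and the changes ran from -0.25 to 0.34 with a median of 0.03, against -0.04 for all genes. A p that misses the threshold with 2 cultures does not show equal values. Set against the libraries labelled R28P-30A, 34 members had a lower index in R28P-30B and none a higher one, beside 42.4% of all genes tested called in either direction and 13.0% called lower. RPL43A had 0.229 and 0.265 in R28P-30B, against 0.376 and 0.458 in libraries labelled R28P-30A (log2 difference -0.75 ± 0.14, SE, adjusted p = 0.00398). RPL37B had 0.153 and 0.143 against 0.219 and 0.246 (-0.65 ± 0.14, adjusted p = 0.00798), and RPL4A had 1.31 and 1.28 against 1.99 and 1.89 (-0.59 ± 0.08, adjusted p = 0.000815). The count was 15 without replicate 2 of the libraries labelled R28P-30A, 17 without replicate 1 of R28P-30B and 15 without its replicate 2, and this contrast shares its R28P-30A libraries with the one against WT.

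In R28P-30B total extracts 4 members rose and 5 fell, beside 30.3% of all genes called. RPL31B, at the rim of the exit tunnel, fell most, to 1222 and 1243 TPM in R28P-30B, against 1469 and 1562 TPM in WT (log2 change of CPM -0.30 ± 0.05, SE, adjusted p = 0.000857). RPL15B had 95.7 and 105 TPM, against 121 and 117 TPM in WT (-0.25 ± 0.07, adjusted p = 0.0109), and RPL26A, another protein of the tunnel rim, had 1242 and 1243 TPM, against 1476 and 1434 TPM in WT (-0.23 ± 0.05, adjusted p = 0.00676). RPL18B and RPL33B also fell. RPL31B, RPL15B, RPL26A and RPL33B are each the less abundant paralog of their pair, but so are RPL1A and RPL12A, which rose. Upwards, RPL1A had 867 and 867 TPM, against 758 and 692 TPM in WT (0.26 ± 0.07, adjusted p = 0.00992), RPL38 had 3916 and 3712 TPM, against 3362 and 3162 TPM in WT (0.22 ± 0.07, adjusted p = 0.0228), and RPL12A, whose protein forms the base of the P stalk, had 1445 and 1380 TPM, against 1194 and 1294 TPM in WT (0.18 ± 0.06, adjusted p = 0.0312). R28P-30B and WT did not overlap for these 6 genes. Without replicate 1 or replicate 2 of R28P-30B, 4 members passed in either case.

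Against libraries labelled R28P-30A, 3 members were higher and 2 lower in R28P-30B total extracts, beside 15.8% of all genes. RPL1A had 867 and 867 TPM in R28P-30B, against 773 and 710 TPM in libraries labelled R28P-30A (log2 difference of CPM 0.23 ± 0.07, SE, adjusted p = 0.0342), RPL1B had 1459 and 1474 TPM against 1310 and 1242 TPM (0.20 ± 0.06, adjusted p = 0.0469), and RPL12A had 1445 and 1380 TPM against 1271 and 1196 TPM (0.19 ± 0.06, adjusted p = 0.0394). The A and B values of RPL1 are uncertain, as the paralogs share most of their sequence. RPL31B had 1222 and 1243 TPM against 1451 and 1537 TPM (-0.28 ± 0.05, adjusted p = 0.00326), and RPL18B had 443 and 435 TPM against 512 and 480 TPM (-0.18 ± 0.06, adjusted p = 0.0498). The count was 2 without replicate 2 of the libraries labelled R28P-30A and 1 without either replicate of R28P-30B.

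In the light fraction of R28P-30B 14 members rose and 3 fell, beside 46.5% of all genes, with a median change of 0.02. RPL1B had 1961 and 1906 CPM in R28P-30B, against 1589 and 1440 CPM in WT (log2 change 0.35 ± 0.07, SE, adjusted p = 0.00424), RPL37B had 2244 and 2332 CPM against 1846 and 1783 CPM (0.33 ± 0.06, adjusted p = 0.00167), and RPL38 had 2026 and 2082 CPM against 1694 and 1594 CPM (0.32 ± 0.11, adjusted p = 0.0394). RPL18B had 522 and 499 CPM against 730 and 696 CPM (-0.48 ± 0.06, adjusted p = 0.000417), RPL16A had 1591 and 1628 CPM against 1824 and 1850 CPM (-0.19 ± 0.05, adjusted p = 0.0116), and RPL27B had 1665 and 1617 CPM against 1837 and 1793 CPM (-0.15 ± 0.05, adjusted p = 0.0371). The strains did not overlap for these 6 genes. The count was 5 without replicate 1 of R28P-30B, 4 without its replicate 2 and 6 without replicate 2 of WT.

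In the heavy fraction of R28P-30B 2 members rose and 2 fell, beside 21.5% of all genes, and the median log2 change was 0.07 over the members and -0.09 over all genes tested. Both heavy libraries of R28P-30B lay above both of WT for 37 of 72 members, beside 18.2% of all genes tested. They lay below both for 7 members, beside 48.6% of all genes tested. RPL37A had 216 and 239 CPM in R28P-30B, against 186 and 178 CPM in WT (log2 change 0.32 ± 0.10, SE, adjusted p = 0.0373), and RPL42B, whose protein borders the E site, had 476 and 520 CPM against 386 and 436 CPM (0.28 ± 0.09, adjusted p = 0.046). RPL22B had 147 and 151 CPM against 175 and 183 CPM (-0.27 ± 0.07, adjusted p = 0.017), and RPL31B had 388 and 374 CPM against 462 and 448 CPM (-0.26 ± 0.07, adjusted p = 0.0208). Both genes that fell are the less abundant paralog, but so is RPL37A, which rose. The split was 5 higher and none lower after centring, 4 higher and none lower in edgeR, and none higher and 2 lower after scaling without ribosomal protein genes. Over all 5680 genes tested, 590, 551 and 420 were called higher in the same order of settings. No member passed without replicate 2 of R28P-30B or without either replicate of WT, and 12 and 11 passed without replicate 1 or 2 of the libraries labelled R28P-30A.

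Among the 10 single-copy genes the index was higher in both cultures labelled R28P-30A than in both WT cultures for 9 genes. The same pattern was shown by 17% of all genes tested. In limma 4 of the 10 were called higher, beside 3.52% of all genes tested. The median log2 change of the 10 was 0.33. RPL3 had an index of 2.08 and 1.91 where the label is R28P-30A, 1.54 and 1.47 in R28P-30B, and 1.62 and 1.52 in WT. RPL5, which carries 5S rRNA into the subunit, had 1.76 and 1.61, 1.32 and 1.24, and 1.36 and 1.36. RPL10 had 1.61 and 1.86, 1.22 and 1.27, and 1.25 and 1.19. These 3 are the only single-copy genes with an index above 1 in WT. RPL32 had 0.748 and 0.88, 0.71 and 0.707, and 0.682 and 0.662 in the same order, and RPL25, the docking site of the signal recognition particle at the exit tunnel, had 0.653 and 0.896, 0.625 and 0.651, and 0.588 and 0.509. RPL28 had 0.553 and 0.637, 0.42 and 0.454, and 0.421 and 0.456, and RPL30 had 0.595 and 0.515, 0.455 and 0.364, and 0.499 and 0.444. RPL38 was the 1 exception to the separation, with 0.362 and 0.283 in libraries labelled R28P-30A and 0.269 and 0.314 in WT, where the cultures overlap. The lowest were RPL29 with 0.158 and 0.144, 0.104 and 0.106, and 0.108 and 0.12, and RPL39 with 0.115 and 0.0935, 0.0848 and 0.0725, and 0.0931 and 0.0884.

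The last question was whether the paralogs of a pair moved alike, for which scaling cancels. In total extracts labelled R28P-30A no member pair changed its A over B ratio, beside 1.64% of the 61 pairs, with 1 member pair at an unadjusted p under 0.05. In R28P-30B total extracts 6 member pairs changed, beside 24.6% of the 61 pairs, and 5 of them are given here. RPL15 (log2 change of A over B 0.25 ± 0.07, SE, adjusted p = 0.0454), RPL33 (0.19 ± 0.04, adjusted p = 0.0253) and RPL4 moved towards A, and RPL26 (-0.24 ± 0.05, adjusted p = 0.0253) and RPL34 (-0.19 ± 0.04, adjusted p = 0.0253) moved towards B. These 5 moved towards their more abundant paralog, though the A and B values of RPL4 are uncertain, as its paralogs share most of their sequence. No trait of the members is read from this direction. RPL26A made up 37.1% of the pair's TPM in R28P-30B, against 41.1% in WT, and RPL34A 41.9%, against 45.1% in WT. RPL33A made up 72.1%, against 69.4% in WT. None of the 6 passed without replicate 1 or replicate 2 of R28P-30B, without replicate 1 or replicate 2 of the libraries labelled R28P-30A, or without all libraries labelled R28P-30A.

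For the translation index, 9 member pairs changed their A over B ratio in libraries labelled R28P-30A, 8 towards A, beside 31.1% of the 61 pairs. RPL22 moved most (log2 change 0.76 ± 0.13, SE, adjusted p = 0.0134). RPL22A had an index of 0.532 and 0.574 in libraries labelled R28P-30A, against 0.447 and 0.435 in WT, while RPL22B had 0.137 and 0.115, against 0.162 and 0.178 in WT. RPL31 followed (0.57 ± 0.17, adjusted p = 0.0486), with 0.461 and 0.612 for RPL31A, against 0.417 and 0.39 in WT, and 0.56 and 0.508 for RPL31B, against 0.609 and 0.598 in WT. In these 2 pairs 1 paralog lay above WT and the other below. RPL43 moved by 0.38 ± 0.09 (adjusted p = 0.0285), with 0.376 and 0.458 for RPL43A, against 0.248 and 0.24 in WT, and 0.159 and 0.173 for RPL43B, against 0.125 and 0.129 in WT. RPL9 moved by 0.38 ± 0.07 (adjusted p = 0.0134), with 1.32 and 1.31 for RPL9A, against 1.03 and 1.03 in WT, while RPL9B had 0.534 and 0.48, against 0.498 and 0.529 in WT. RPL26 alone moved towards B (-0.35 ± 0.07, adjusted p = 0.0155), with 0.635 and 0.637 for RPL26B, against 0.468 and 0.453 in WT, and 0.338 and 0.378 for RPL26A, against 0.328 and 0.333 in WT. No member pair passed without replicate 1 or without replicate 2 of WT.

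In R28P-30B the index ratio passed in 1 member pair, beside 3.28% of the 61 pairs, and 6 member pairs had an unadjusted p under 0.05. The count was 6 without either single culture labelled R28P-30A, 2 without replicate 1 of R28P-30B, and 0 without its replicate 2 or without either replicate of WT.

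**Figure D5:**
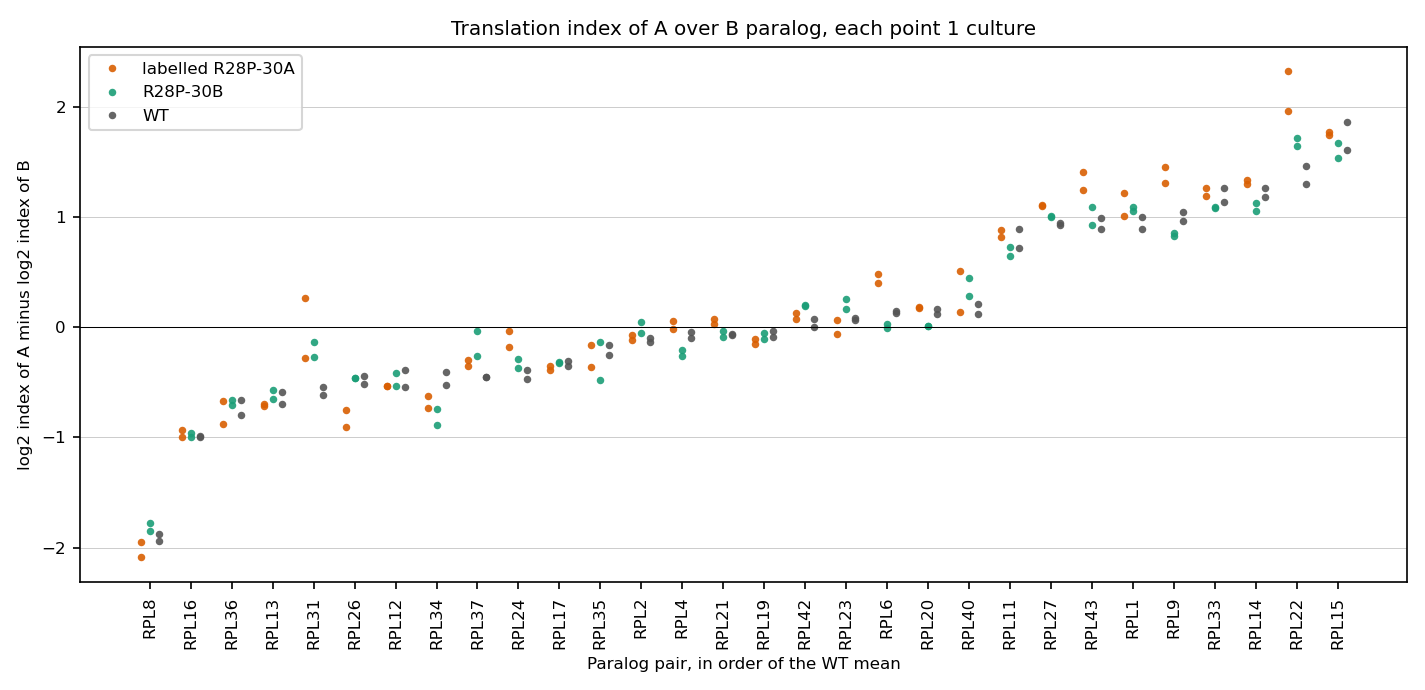
log2 translation index of the A paralog minus that of the B paralog for 30 of the 31 pairs, in order of the WT mean, with orange points for cultures labelled R28P-30A, green for R28P-30B and grey for WT, 2 cultures each. The pairs span -1.91 (RPL8) to 1.73 (RPL15) in WT, and RPL22 and RPL31 show a wide spread between strains.

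Of the pairs that the study itself followed, RPL27, RPL36 and RPL37, RPL27 had A at 61.4% of the pair's TPM in total extracts labelled R28P-30A, against 63.6% in those of R28P-30B and 60.1% in WT. Its index ratio moved towards A by 0.16 ± 0.05 in libraries labelled R28P-30A (SE, adjusted p = 0.0486). RPL27B had an index of 0.291 and 0.365 where the label is R28P-30A, 0.272 and 0.298 in R28P-30B, and 0.244 and 0.244 in WT. RPL36A made up 21.2%, 21.1% and 21.6% of its pair's TPM in the same order, with an index of 0.268 and 0.283, 0.206 and 0.229, and 0.199 and 0.209 for RPL36A, and of 0.426 and 0.52, 0.336 and 0.362, and 0.314 and 0.364 for RPL36B. RPL37A made up 44.6%, 44.8% and 43.3%, and RPL37B had an index of 0.219 and 0.246, 0.153 and 0.143, and 0.158 and 0.166. Neither RPL36 nor RPL37 passed in the index ratio, with adjusted p of 0.719 and 0.322 in libraries labelled R28P-30A and of 0.747 and 0.0931 in R28P-30B.

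Sorted by where their proteins sit, the members are described by counts and medians, with no test of the groups. In libraries labelled R28P-30A, where the index rose for 32 of all 72 members and for 3.52% of all genes tested, it rose for 6 of the 9 genes of the catalytic core and central protuberance (median log2 change 0.34), for 4 of the 8 genes whose proteins join late or in the cytoplasm (0.40), for 3 of the 12 genes of the exit tunnel rim (0.30) and for 3 of the 10 genes of the stalks and factor binding region (0.35), and it fell for none. Their WT levels differed more. The median log2 index was 0.29 in the catalytic core and central protuberance and -0.80 at the stalks. It was -0.94 at the tunnel rim and -1.41 among the late proteins. The 4 longest members are all in the group of the catalytic core and central protuberance.

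Genes that make the subunit or control its genes were counted in the same way, and nothing is read from a share near that of all genes. Where the label is R28P-30A, 3.52% of all genes tested had a higher index and 20.5% a lower one. For R28P-30B the shares were 8.91% with a higher index and 4.51% with a lower one. Of 67 factors of 60S assembly, 12 had a lower index in libraries labelled R28P-30A and none a higher one (median log2 change -0.18), and in R28P-30B 5 were higher and 1 lower (0.04). Of 10 regulators of ribosomal protein genes, such as Rap1 and Sfp1, 7 were lower in libraries labelled R28P-30A (median -0.37), while in R28P-30B 5 were higher and 1 lower (0.26). None of 4 tested chaperones that escort single large subunit proteins passed in either strain. Of the 56 genes of the small subunit 22 were higher and none lower in libraries labelled R28P-30A (median 0.30), and none passed in R28P-30B (median 0.05). All 5 genes of the stalk P proteins, which are no members, were higher in libraries labelled R28P-30A (median 0.69).

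The promoters were searched for the core of the Rap1 site, CACCCNTACA, on both strands of the 500 bases before the start codon, which also cover the leader and any gene that lies there. It occurred for 11 of 72 members (15.3%), for 7 of the 56 small subunit genes (12.5%) and for 0.898% of all genes tested. A match is a run of letters and not a bound site, and the lack of one says only that these letters are not in this window. The members are spread over 14 of the 16 nuclear chromosomes, with at most 9 on 1 of them.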

How the data were processed

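RNA of 18 libraries (3 strains, 3 fractions, 2 cultures) was analysed. Strand-specific libraries came from poly(A)-selected RNA. The authors mapped them to R64 by STAR, kept all valid positions, counted with featureCounts and deposited CPM, that is reads scaled to 1 total per library. Of the CPM values 100% lay within 0.05 of a whole read, and reads were recovered from them. TPM was recomputed from these reads and the coding lengths of the R64 annotation. The deposited TPM table, which covers fewer libraries, was not used.

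The translation index was heavy CPM over light CPM of a culture. limma (3.58.1, R 4.3.3) with a trend was fitted on log2 of the ratio or of CPM, after adding 0.1 CPM, over the 5680 genes whose total-extract mean exceeded 1 TPM, with 1 spread for the 3 strains. A over B ratios were fitted without a trend over 61 pairs whose names differ in a final A or B. Calls were made at a Benjamini-Hochberg adjusted p under 0.05, and log2 changes understate those of low genes. Replicates are cultures that the labels number separately. With 2 cultures a group no exact permutation test can go below p = 0.33 (two-sided), so tests rest on a spread shared over genes.

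Named were the 3 largest rises and falls past the threshold per comparison, the 3 highest and lowest WT indices, the 5 most unequal and 3 most equal pairs, up to 5 pairs called per pair comparison, the pairs RPL27, RPL36 and RPL37, and the single-copy genes. For 1 member, which stays in the counts and medians, no values are reported here. Members and lists were chosen with earlier results of these data known. The fit was tested on simulated data and recovered most of the changes put in. Those changes were larger than any strain difference of a member reported here, so recovery of changes of the reported size was not tested. Alternatives were a pseudocount of 1, no filter, scaling without ribosomal protein genes, centring each library or culture, edgeR (4.0.16) with TMM on recovered reads, a replicate block and leaving out each culture. Leaving out all libraries labelled R28P-30A was added after the data were seen. Sequences were read with Python 3.11.15 and Biopython 1.88, and figures drawn with matplotlib 3.10.9.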

Additional observations from a re-analysis of the deposited data

Results flagged for a closer look

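The difference between heavy and light fraction was not the same in each strain, by a test of the strain difference in limma (Benjamini-Hochberg adjusted p under 0.05). It differed for 32 members between libraries labelled R28P-30A and WT, beside 24.1% of all genes tested. All of these were higher, beside 3.52% of all genes called higher. For 34 members it differed between R28P-30B and libraries labelled R28P-30A, beside 42.4% of all genes tested. All of these were lower, beside 13.0% of all genes called lower. Against WT the log2 differences for libraries labelled R28P-30A were 0.77 for RPL43A, 0.65 for RPL37A and 0.58 for RPL27A. R28P-30B over libraries labelled R28P-30A gave -0.75 for RPL43A, -0.65 for RPL37B and -0.59 for RPL4A.

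The A over B ratio of the translation index differed between libraries labelled R28P-30A and WT for 9 member pairs, beside 31.1% of all 61 pairs. Among the 9 were RPL22 (log2 difference 0.76), RPL31 (0.57), RPL43 (0.38), RPL9 (0.38), RPL26 (-0.35) and RPL27 (0.16). It differed between R28P-30B and WT for 1 member pair, beside 3.28% of the 61 pairs. Nothing is read from these counts, which lie near the shares of all pairs.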

How the results depend on the processing

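The replicate numbers did not pair the cultures, since the deviations of same-numbered cultures correlated at 0.0951 to 0.154 in total extracts, at -0.426 to 0.067 in the light fraction, at -0.082 to 0.203 in the heavy fraction and at -0.201 to 0.121 for the index. With the number as a replicate block, members called were 16 in R28P-30B total extracts, 11 in its light and 8 in its heavy fraction against WT, and other counts stayed within 1.5 times. Of 175 counts under alternatives 124 lay within 1.5 times of those reported. Of 685 values of named genes or pairs 132 lost the call, and none was counted as reversed. A change of sign was counted as a reversal only where the value was called in the main fit or in the alternative. Values not called in either could change sign and were counted as unchanged. With 2 cultures a group the tests rest on a spread shared over genes, and the cause of the shifts was not tested.

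For the index of libraries labelled R28P-30A against WT, centring gave 61 members and edgeR 67. For R28P-30B against those libraries they gave 60 and 63. Over all 5680 genes tested, centring and edgeR called 1060 and 1474 for the first contrast, and 2858 and 3016 for the second. For R28P-30B against WT a pseudocount of 1 and edgeR gave 1 each. In total extracts, centring gave 5 for R28P-30B against WT. Against libraries labelled R28P-30A it gave 2, edgeR 2, no filter 3 and scaling without ribosomal protein genes 3. In the heavy fraction of R28P-30B against WT that scaling gave 2. Without all libraries labelled R28P-30A, R28P-30B against WT gave 11 members in the heavy fraction, 0 pairs in total extracts and 6 pairs for the index.

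Leaving out 1 culture gave 0 to 28 members for the index of libraries labelled R28P-30A against WT and 15 to 34 for R28P-30B against them. In total extracts it gave 4 to 11 for R28P-30B against WT and 1 to 6 against libraries labelled R28P-30A. It gave 4 to 24 in the light and 0 to 12 in the heavy fraction of R28P-30B, and 0 to 10 in the heavy fraction of libraries labelled R28P-30A. Pairs called in total extracts were 0 to 2 in libraries labelled R28P-30A and 0 to 9 in R28P-30B, and for the index 0 to 10 and 0 to 6 in the same order.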
